A study of Mus musculus with 6 samples.

Results

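The miR-200 family comprises 5 hairpins in 2 genomic clusters, and all 10 of its mature microRNAs (miRNAs, small RNAs that silence messenger RNAs) were taken by name from a table of 1542 mature sequences. Of the 10, 9 had enough counts for testing and were fitted together with all other miRNAs that did, and miR-429-5p, with at most 1 count in any library, did not. Kidney small RNA came from 3 libraries of C57BL/6 mice, the controls, and 3 libraries of MRL/lpr mice (MRL/MpJ-Fas<lpr>/J), all female and 17 weeks of age. The MRL/lpr strain lacks normal Fas because of its lpr allele and develops lupus-like disease with nephritis, so background, mutation and disease differ together between the strains and cannot be told apart. The labels name no agent for either strain and do not say whether each library is a separate animal.

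Members of this family are made in epithelial cells, where the 3p strands repress the transcription factors ZEB1 and ZEB2 and thereby help to keep E-cadherin expressed, and the ZEB proteins in turn repress transcription of both clusters. In the kidney the family is known from the tubule and collecting duct epithelium, and its loss is linked to the shift of epithelial cells towards a mesenchymal state. A miRNA recognises its targets mainly through its seed (bases 2 to 8 from the 5′ end), so the family falls into 2 groups of 3p strands that differ within the seed. These groups cut across the genomic clusters, since each cluster encodes members of both.

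The 5 mature 3p sequences are shown because the comparison of seed groups rests on them, with the seed in capitals (RefSeq, GRCm38.p6, 10 of 10 members matched by name; mmu stands for mouse and is left out elsewhere).
mmu-miR-200b-3p: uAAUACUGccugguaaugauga
mmu-miR-200c-3p: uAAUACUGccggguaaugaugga
mmu-miR-429-3p: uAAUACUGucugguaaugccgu
mmu-miR-200a-3p: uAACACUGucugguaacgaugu
mmu-miR-141-3p: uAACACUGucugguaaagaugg
The first 3 share the seed AAUACUG and the last 2 share AACACUG, and no other mature mouse sequence in the RefSeq table has either seed. Counting positions from 1 at the 5′ end, the seed groups differ by C4U (miR-200a-3p first, miR-200b-3p second). The 2 closest pairs each join members of different clusters. miR-200a-3p and miR-141-3p differ at 2 of 22 positions (C17A and U22G), and miR-200b-3p and miR-200c-3p differ at 2 of 22 compared positions (U11G and A22G), with miR-200c-3p 1 base longer. miR-429-3p differs from miR-200b-3p at 4 positions, all outside the seed (C9U, A19C, U20C and A22U).

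The hairpins of miR-200b, miR-200a and miR-429 lie in that order of transcription on the minus strand of chromosome 4 (GRCm38, 156053905 to 156055750, a span of 1846 bases). In GENCODE M21 all 3 lie in introns of the protein-coding gene Ttll10 on the same strand, and the miR-429 hairpin also lies in an exon of the noncoding transcript Gm13648. The hairpins of miR-200c and miR-141 lie on the minus strand of chromosome 6 (124717914 to 124718390, a span of 477 bases) in an intron of the noncoding transcript Gm15884. The miR-141 hairpin also partly overlaps an exon of Gm29008, a gene model on the same strand.

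Library totals ran from 5259528 to 6773829 counts. In C57BL/6 replicate 2 the summed level of 8 leukocyte miRNAs was 29069 CPM (counts scaled to a common library size, with library factors from the trimmed mean of M values, TMM), against 6068 to 11123 CPM in the other 5 libraries, and each of the 8 had its highest C57BL/6 value there. miR-146a-5p alone gave 25574 CPM of that sum. miR-223-3p, at 1019 CPM, was also at its highest of all 6 libraries there. miR-142a-3p did not share this, at 88.8 CPM there against 111 to 151 CPM in MRL/lpr. Every MRL/lpr value of miR-155-5p also lay above every C57BL/6 value. The sum of 13 mesenchymal miRNAs was 83884 CPM in C57BL/6 replicate 2, against 55421 to 61706 CPM elsewhere. Of the 12 tested, 8 had their highest C57BL/6 value there and 2 their lowest. Its abundant member miR-21a-5p, known from injury and fibrosis, varied widely in C57BL/6 kidney (15382 ± 9630 CPM, SD, n = 3). Leaving C57BL/6 replicate 2 out raised its log2 fold change (MRL/lpr over C57BL/6) from 0.25 to 0.92. The red blood cell miRNA miR-451a was at 593 CPM in C57BL/6 replicate 2 against 2829 to 4284 CPM elsewhere. The kidney tubule markers miR-192-5p and miR-194-5p were abundant in all 6 libraries (at least 17466 and 12550 CPM), with the lowest value of each in C57BL/6 replicate 2, while miR-215-5p had at most 5 counts in any library. The tubule marker miR-204-5p differed between the strains, at 4277 to 5836 CPM in C57BL/6 kidney and 12868 to 17048 CPM in MRL/lpr. The endothelial miRNA miR-126a-3p ranged from 56981 to 81761 CPM over the 6 libraries. In whole-kidney RNA, fewer cells of a type and less RNA per cell cannot be told apart.

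The family's share of the counted miRNAs overlapped between the strains. It was 4.66%, 3.60% and 5.39% in C57BL/6 replicates 1, 2 and 3, and 5.63%, 5.05% and 5.15% in MRL/lpr. C57BL/6 replicate 2 had the lowest share and MRL/lpr replicate 1 the highest. The chromosome 4 cluster supplied nearly all of it, with 96.7% ± 1.17 of the family's counts in C57BL/6 kidney and 96.3% ± 0.723 in MRL/lpr (SD, n = 3). The 3p strands supplied 99.5% ± 0.0808 and 99.5% ± 0.0542.

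miR-429-3p was the most abundant member in every library and ranked 7 by mean level among all sequences of the table. It was followed by miR-200a-3p, miR-200b-3p, miR-200c-3p, miR-141-3p, miR-200a-5p, miR-200b-5p, miR-141-5p, miR-200c-5p and miR-429-5p. Each member was higher than the next in 6 of 6 libraries, and the ranges did not meet, except for miR-200a-3p and miR-200b-3p, whose order changed between libraries (miR-200a-3p higher in 4 of 6). Mature lengths were 21 to 23 bases, so length hardly separates them, but adapter ligation favours some ends over others and the levels of different members are less comparable than those of 1 member between libraries.

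**Figure D1:**
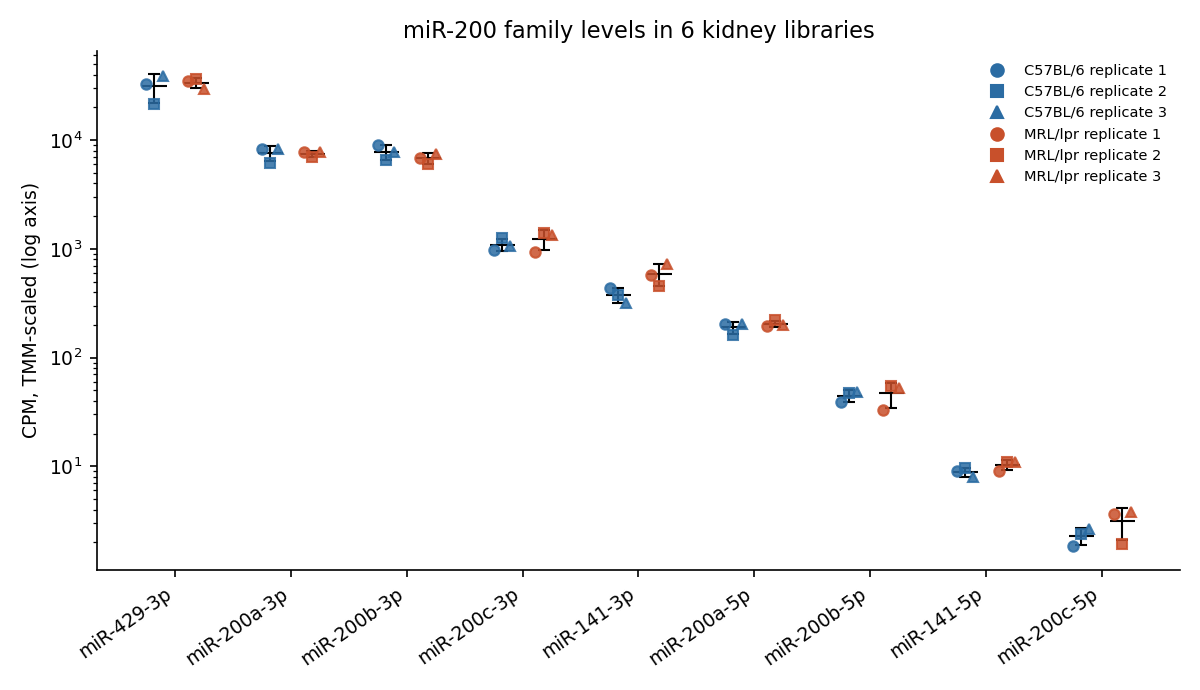
Level of each of the 9 tested members (log axis, TMM-scaled CPM) in the 3 C57BL/6 and 3 MRL/lpr libraries; marker shapes give the replicate, and bars give mean and SD. Levels span from 2.72 CPM on average for miR-200c-5p to 32429 CPM for miR-429-3p, and the strains overlap for every member except miR-141-3p.

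None of the 9 tested members passed the test between the strains (quasi-likelihood F test in edgeR, with p adjusted by Benjamini-Hochberg over all tested miRNAs and a threshold of 0.05; adjusted p from 0.133 to 0.969). Over all tested miRNAs 6.21% passed, 4.21% as higher and 2% as lower in MRL/lpr. DESeq2 and limma-voom also called 0 members, and 1 member, miR-141-3p, had an unadjusted edgeR p under 0.05, as 20.8% of all tested miRNAs did. Log2 fold changes (MRL/lpr over C57BL/6) ran from -0.19 to 0.63 with a median of 0.11, against a median of -0.027 over all tested miRNAs. They were above 0 for 7 of 9 members, against 48.6% of all tested miRNAs. For 7 of 9 members the 95% interval of the fold change lay within 2-fold in either direction, against 42.4% of all tested miRNAs. A p above the threshold does not show that the strains are alike, and these intervals give the sizes of difference that the 6 libraries leave possible.

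**Figure D2:**
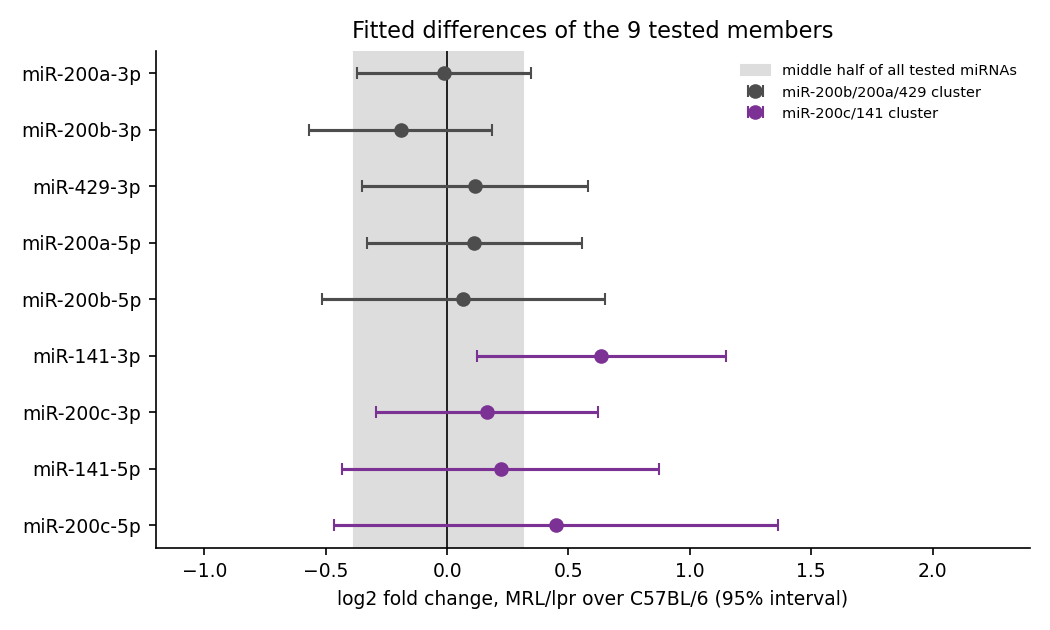
Log2 fold change of each tested member (points) with its 95% interval (bars) from the edgeR fit, coloured by cluster; the grey band spans the 25th to 75th percentile of all tested miRNAs (-0.38 to 0.31). All intervals include 0 except that of miR-141-3p (0.12 to 1.15), which did not pass after adjustment.

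Within the chromosome 4 cluster, miR-429-3p, which carries the AAUACUG seed, was at 32888, 21379 and 39190 CPM in C57BL/6 replicates 1, 2 and 3 and at 34918, 36435 and 29764 CPM in MRL/lpr. C57BL/6 replicate 2 was the lowest library and C57BL/6 replicate 3 the highest, so the MRL/lpr values lay inside the C57BL/6 range. Its log2 fold change was 0.11 ± 0.21 SE (edgeR adjusted p = 0.776), with a 95% interval of the fold from 0.783 to 1.49. Without C57BL/6 replicate 2 the log2 fold change turned to -0.082.

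miR-200b-3p, with the same seed, was at 8976, 6489 and 7820 CPM in C57BL/6 kidney and at 6865, 6011 and 7509 CPM in MRL/lpr. The groups overlapped, with C57BL/6 replicate 1 highest and MRL/lpr replicate 2 lowest. Its log2 fold change was -0.19 ± 0.17 SE (edgeR adjusted p = 0.564), the lowest of the tested members.

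miR-200a-3p, which carries the AACACUG seed, was at 8217, 6199 and 8279 CPM in C57BL/6 kidney and at 7775, 6978 and 7723 CPM in MRL/lpr. All MRL/lpr values lay between the lowest and the highest C57BL/6 value. Its log2 fold change of -0.014 ± 0.16 SE was the nearest to 0 in the family (edgeR adjusted p = 0.969; 95% interval of the fold 0.773 to 1.27), and its sign depended on the scaling, being 0.0072 with RLE scaling and 0.15 with library size alone.

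The 5p strands of this cluster, the passenger strands, were much less abundant and also overlapped between strains. miR-200a-5p ranged from 161 to 220 CPM over the 6 libraries and miR-200b-5p from 32.9 to 54.9 CPM, with log2 fold changes of 0.11 ± 0.20 and 0.066 ± 0.26 SE (edgeR adjusted p = 0.766 and 0.912). Their seeds are identical (AUCUUAC).

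Within the chromosome 6 cluster, all 4 tested members had log2 fold changes above 0, from 0.17 to 0.63, and none passed. Over all tested miRNAs 48.6% were above 0, and these 4 come from 2 hairpins. Each stayed above 0 under every alternative that tested it (16 for each 3p strand and 15 for each 5p strand). The filter of 10 CPM in 3 libraries removed the 5p strands. miR-141-3p, with the AACACUG seed, had 2149, 2361 and 2033 counts in C57BL/6 (440, 379 and 317 CPM) and 4082, 2363 and 4398 counts in MRL/lpr (576, 459 and 728 CPM). Every MRL/lpr value was above every C57BL/6 value, although MRL/lpr replicate 2 was only slightly above C57BL/6 replicate 1. The mean was 379 ± 61.5 CPM in C57BL/6 kidney and 588 ± 135 CPM in MRL/lpr (SD, n = 3), a fitted 1.55-fold difference (log2 fold change 0.63 ± 0.23 SE, unadjusted p = 0.0203, edgeR adjusted p = 0.133). It was the 1 member of 9 whose groups did not overlap, against 28.8% of all tested miRNAs. Its log2 fold change stayed above 0 under all 16 alternatives run, from 0.48 to 0.80, with adjusted p from 0.0870 (DESeq2) to 0.461 (edgeR without MRL/lpr replicate 3), so none brought it past the threshold.

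miR-200c-3p, the other 3p strand of this cluster and a carrier of the AAUACUG seed, was at 971, 1258 and 1056 CPM in C57BL/6 kidney and at 942, 1388 and 1352 CPM in MRL/lpr. MRL/lpr replicate 1 was the lowest of all 6 libraries and the other 2 MRL/lpr libraries the highest. Its log2 fold change was 0.17 ± 0.21 SE (edgeR adjusted p = 0.679; 95% interval of the fold 0.816 to 1.54). The log2 fold change was 0.038 without C57BL/6 replicate 1 and 0.35 without MRL/lpr replicate 1. The 5p strands were rare. miR-141-5p had 44 to 66 counts per library and a log2 fold change of 0.22 ± 0.29 SE (edgeR adjusted p = 0.694). miR-200c-5p had 9, 15 and 17 counts in C57BL/6 kidney and 26, 10 and 23 in MRL/lpr, where counting error alone is wide (9 counts have an exact 95% Poisson interval of 4.12 to 17.1), and its log2 fold change was 0.45 ± 0.41 SE (edgeR adjusted p = 0.574).

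Members of 1 cluster deviated differently from library to library. In C57BL/6 replicate 2, miR-429-3p lay at -0.57 from its mean over the 6 libraries on the log2 scale, while miR-200b-3p lay at -0.15 and miR-200a-3p at -0.27. In the same library miR-200c-3p lay above its mean, at 0.13, and its neighbour miR-141-3p below, at -0.29. MRL/lpr replicate 1 had the opposite split in the chromosome 6 cluster, with miR-141-3p at 0.31 and miR-200c-3p at -0.28. Of the 9 tested members, 4 were lowest and 2 highest in C57BL/6 replicate 2 among the C57BL/6 libraries, against 39.0% lowest and 38.1% highest over all tested miRNAs. The leukocyte and mesenchymal sums are highest in the same library, and their part in these values was not tested.

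**Figure D3:**
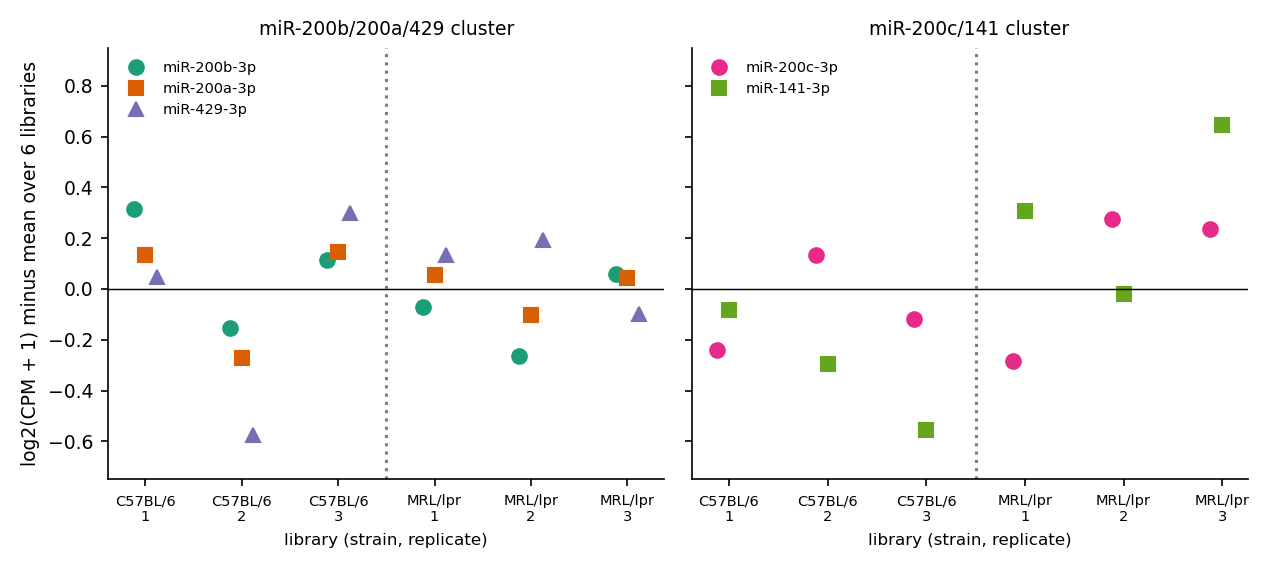
Log2(CPM + 1) of each 3p member minus its mean over the 6 libraries (vertical axis), by library, with the chromosome 4 cluster on the left and the chromosome 6 cluster on the right. In C57BL/6 replicate 2 the 3 members on the left all lie below 0, down to -0.57 for miR-429-3p, and on the right miR-200c-3p and miR-141-3p lie on opposite sides of 0 in that library and in MRL/lpr replicate 1.

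The clusters were compared by the ratio of their summed counts within each library, which does not depend on scaling. The chromosome 6 cluster held 2.82%, 4.81% and 2.49% of the counts of the chromosome 4 cluster in C57BL/6 kidney and 3.08%, 3.74% and 4.63% in MRL/lpr. C57BL/6 replicate 2 had the highest ratio of all, and the groups overlapped. The mean log2 ratio was 0.22 higher in MRL/lpr (mean ± SD of 3 libraries -4.95 ± 0.504 for C57BL/6, -4.73 ± 0.295 for MRL/lpr). The two-sided exact permutation p was 0.6, and 0.1 is the lowest that 3 against 3 libraries allow. Without C57BL/6 replicate 2 the difference was 0.50 (exact permutation p = 0.2), and without C57BL/6 replicate 3 it was 0.030. With MRL/lpr replicate 3 left out it was 0.069, with C57BL/6 replicate 1 left out 0.12, and with MRL/lpr replicate 1 left out 0.36. With the mean of log2(CPM + 1) of the 3p strands in place of summed counts, the difference between the clusters was 0.40 (exact permutation p = 0.3). Before TMM scaling the chromosome 6 cluster took 0.128%, 0.165% and 0.131% of all counts in C57BL/6 kidney and 0.168%, 0.182% and 0.228% in MRL/lpr, so these groups did not overlap. After scaling they overlapped, with 1383 to 1649 CPM in C57BL/6 kidney and 1531 to 2095 CPM in MRL/lpr. Before scaling the family's summed 5p strands did not overlap either, at 0.0221% to 0.0251% in C57BL/6 kidney and 0.0263% to 0.0291% in MRL/lpr. Without TMM scaling the median log2 fold change over all tested miRNAs was 0.15 higher than with it. After scaling 28.8% of all tested miRNAs did not overlap.

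The seed groups were compared in the same way over the 3p strands. The AACACUG group (miR-200a and miR-141) held 20.2%, 22.6% and 17.9% of the counts of the AAUACUG group (miR-200b, miR-200c and miR-429) in C57BL/6 kidney and 19.5%, 17.0% and 21.9% in MRL/lpr. Both strains covered nearly the same range. The mean log2 ratio was -2.31 ± 0.169 for C57BL/6 and -2.37 ± 0.184 for MRL/lpr (SD over 3 libraries), a difference of -0.057 (two-sided exact permutation p = 0.7). The sums are set by the most abundant members, miR-200a-3p and miR-429-3p. With the mean of log2(CPM + 1) of the members in place of sums, which gives miR-141-3p equal weight, the difference was 0.27 (exact permutation p = 0.3), so its sign depended on the summary. Without C57BL/6 replicate 2 or MRL/lpr replicate 2 the difference of the sums was 0.026 or 0.039.

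Ratios of single members were then taken within clusters and within seed groups, and the p-values of all 7 ratios were adjusted together (Benjamini-Hochberg adjusted p of at least 0.35 for each). Within the chromosome 4 cluster, miR-429-3p had 3.66, 3.29 and 5.01 times the counts of miR-200b-3p in C57BL/6 kidney and 5.09, 6.06 and 3.96 times in MRL/lpr. The groups overlapped (difference of the mean log2 ratios 0.34, exact permutation p = 0.2), and the difference was 0.19 without MRL/lpr replicate 2 and 0.51 without C57BL/6 replicate 3. miR-200a-3p and miR-200b-3p stayed near equal counts, with ratios of 0.915 to 1.06 in C57BL/6 kidney and 1.03 to 1.16 in MRL/lpr (exact permutation p = 0.2). Within the chromosome 6 cluster, miR-141-3p had 45.3%, 30.2% and 30.0% of the counts of miR-200c-3p in C57BL/6 kidney and 61.2%, 33.0% and 53.9% in MRL/lpr. The groups overlapped, with MRL/lpr replicate 2 near the C57BL/6 values (difference 0.47, exact permutation p = 0.2). Without MRL/lpr replicate 1 this difference was 0.29, and without MRL/lpr replicate 2 it was 0.74.

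Within the AACACUG seed group, miR-141-3p had 5.35%, 6.12% and 3.83% of the counts of miR-200a-3p in C57BL/6 kidney and 7.41%, 6.57% and 9.43% in MRL/lpr. This was the 1 ratio of 7 whose groups did not overlap (difference of the mean log2 ratios 0.62, exact two-sided permutation p = 0.1, the smallest possible, and 0.35 after adjustment), and it was chosen for testing after the values of miR-141-3p had been seen. How reads with mismatches or with matches to several entries were assigned could not be learned from the labels or notes. With 2 differing bases between these strands, the part of such reads in the counts of miR-141-3p was not tested. Within the AAUACUG seed group, miR-200c-3p had 10.8% to 19.4% of the counts of miR-200b-3p in C57BL/6 kidney and 13.7% to 23.1% in MRL/lpr (difference 0.34, exact permutation p = 0.4). With 1 library left out this difference ran from 0.14 (without C57BL/6 replicate 1) to 0.56 (without C57BL/6 replicate 2).

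**Figure D4:**
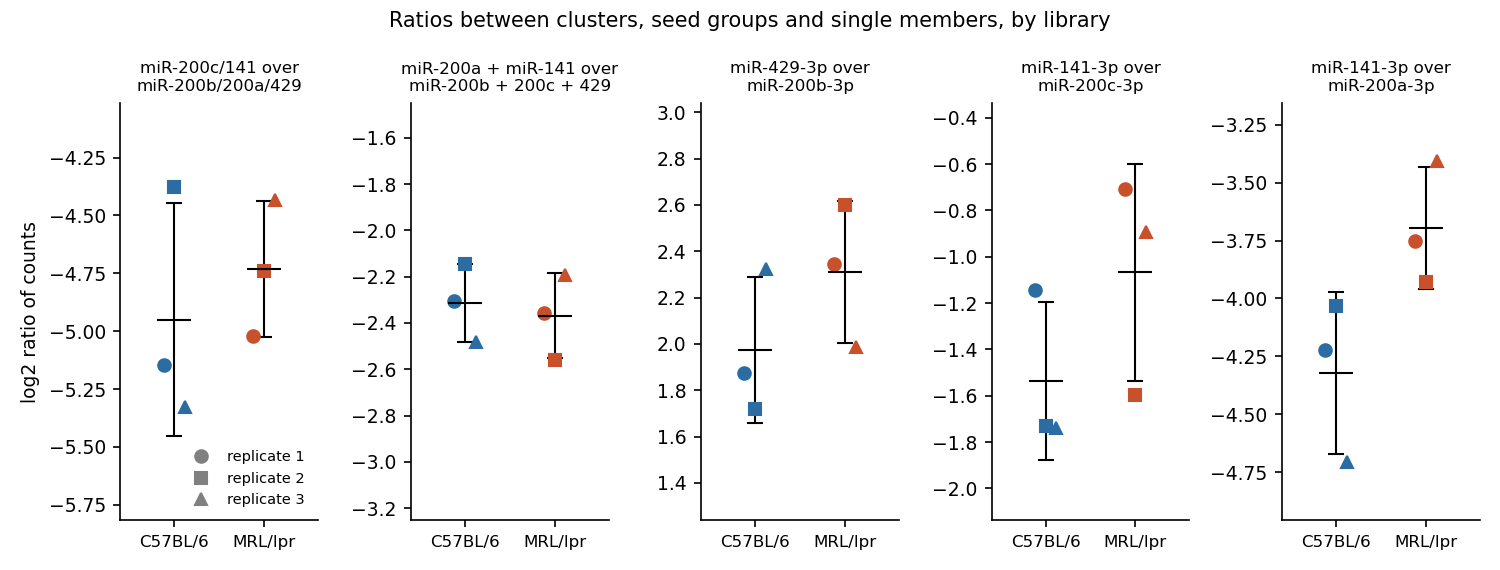
Log2 ratio of counts in each library (points; shapes give the replicate) for the clusters, the seed groups and 3 ratios of single members, with mean and SD (bars, n = 3 per strain); the vertical axes have different centres and the same span. Groups overlap in the first 4 panels, and in the last the MRL/lpr ratios of miR-141-3p to miR-200a-3p lie above the C57BL/6 ratios.

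Arm balance differed far more between the hairpins than between the strains. The miR-200a and miR-429 hairpins are shown because they mark the ends of that range, with both mature strands in capitals, the 5p strand first.
miR-200a hairpin: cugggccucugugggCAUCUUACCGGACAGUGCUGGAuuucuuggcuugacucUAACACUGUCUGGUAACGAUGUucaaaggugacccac
miR-429 hairpin: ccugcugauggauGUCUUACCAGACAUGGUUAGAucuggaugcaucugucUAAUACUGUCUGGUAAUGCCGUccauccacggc
The 5p strand made up 2.45% ± 0.0769 of the counts of the miR-200a hairpin in C57BL/6 kidney and 2.67% ± 0.338 in MRL/lpr (SD, n = 3). It made up 2.31% ± 0.264 and 1.79% ± 0.489 for miR-141, 0.587% ± 0.146 and 0.692% ± 0.214 for miR-200b, and 0.210% ± 0.0346 and 0.270% ± 0.125 for miR-200c. For miR-429 only 2 counts of the 5p strand were seen over all 6 libraries beside 1160196 counts of the 3p strand. In the 4 libraries with 0 counts, a count of 0 allows a 5p share of at most 0.00121% to 0.00225% (3 counts of the hairpin's total, counting error only). In RefSeq the 5p strand of miR-429 has the seed UCUUACC, which no other family member shares, and is 21 bases long. The 3p strand dominated in all 5 hairpins and all 6 libraries.

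None of the 5 hairpins passed the test of arm balance between the strains (limma on log2 of the 5p to 3p ratio of CPM + 1, Benjamini-Hochberg adjusted over 209 hairpins; unadjusted p under 0.05 for 0 of 5), and over all hairpins 0.478% passed. This does not show that the balances are alike. For miR-141 the log2 5p to 3p ratios were -5.46, -5.16 and -5.15 in C57BL/6 kidney and -5.85, -5.25 and -5.93 in MRL/lpr. MRL/lpr replicate 2 lay among the C57BL/6 values. The difference was -0.42 ± 0.28 SE (limma adjusted p = 0.494; 95% interval -1.05 to 0.21), and with 1 library left out it ran from -0.63 (without MRL/lpr replicate 2) to -0.29 (without MRL/lpr replicate 3). For miR-200b the difference was 0.22 ± 0.32 SE (limma adjusted p = 0.788) and ran from 0.0074 (without MRL/lpr replicate 2) to 0.46 (without MRL/lpr replicate 1). For miR-429 the fitted ratio is set by the added 1 CPM and gives no information on the strains.

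**Figure D5:**
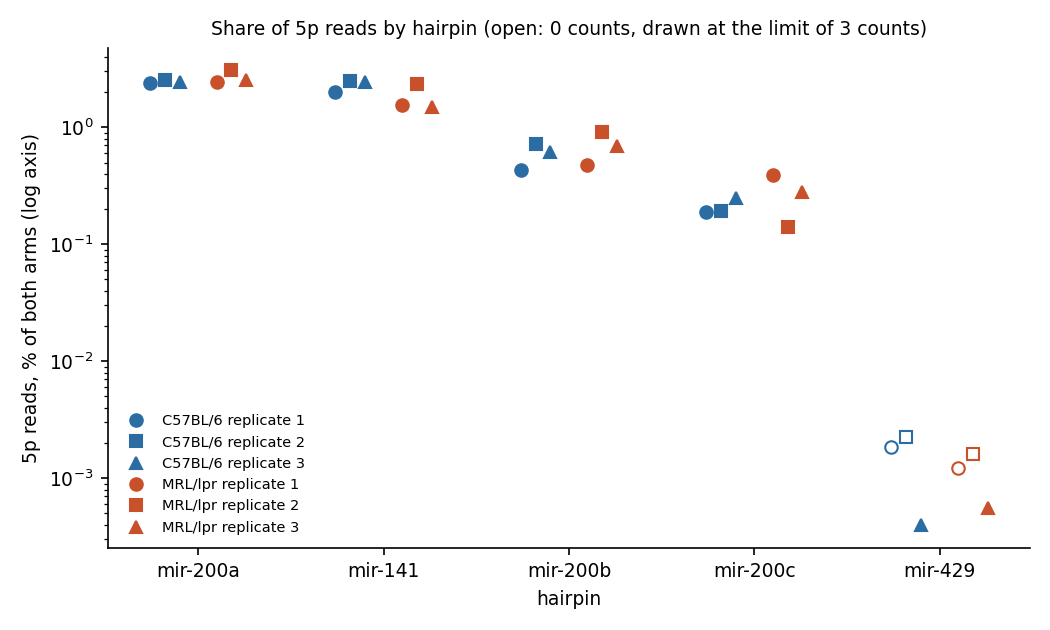
Share of 5p counts among both strands of each hairpin (log axis, %), in the 3 C57BL/6 and 3 MRL/lpr libraries; open symbols mark libraries with 0 counts, drawn at the limit of 3 counts. Shares lie between 1.48% and 3.06% for miR-200a and miR-141, between 0.140% and 0.905% for miR-200b and miR-200c, and at or below the 0.00225% limit for miR-429.

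Other miRNAs known from epithelial cells did not share 1 direction. Of 16 tested on a list of 17, 2 rose, 1 fell and 13 did not pass, with a median log2 fold change of 0.13, against -0.027 and 6.21% called over all tested miRNAs. The list was chosen with earlier results of these data known, so its calls and directions only describe the listed miRNAs. miR-204-5p, an abundant epithelial miRNA, rose (5195 ± 815 to 14945 ± 2090 CPM; SD, n = 3; edgeR adjusted p = 0.00141), and so did its near-identical relative miR-211-5p, at much lower levels (edgeR adjusted p = 0.0358). Reads of miR-204-5p assigned to miR-211-5p were not tested for, so the latter is uncertain. miR-375-3p, a miRNA of secretory epithelium, fell (edgeR adjusted p = 0.00793). miR-205-5p, another miRNA known to repress ZEB1 and ZEB2, was at 5.38 ± 6.27 CPM in C57BL/6 kidney and 1.69 ± 2.33 CPM in MRL/lpr and did not pass (edgeR adjusted p = 0.554). miR-211-5p missed the threshold without C57BL/6 replicate 3 or any 1 of the MRL/lpr libraries, and miR-375-3p without MRL/lpr replicate 3 (edgeR adjusted p = 0.0654).

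Of 12 tested mesenchymal miRNAs none passed, with a median log2 fold change of -0.19. The most abundant, miR-143-3p of smooth muscle, was at 32041 ± 3670 and 25458 ± 3790 CPM (SD, n = 3), and miR-21a-5p, known from injury and fibrosis, at 15382 ± 9630 and 18284 ± 2420 CPM. Of 8 leukocyte miRNAs, miR-155-5p, induced in activated lymphocytes and macrophages, rose (log2 fold change 1.30 ± 0.30 SE, edgeR adjusted p = 0.0331), and the list median was 0.13. It missed the threshold without C57BL/6 replicate 1 or 3, or MRL/lpr replicate 1 or 3 (edgeR adjusted p up to 0.156), and with edgeR without robust dispersion (adjusted p = 0.0528). Without C57BL/6 replicate 2, 2 of 12 mesenchymal and 5 of 8 leukocyte miRNAs passed as higher, with medians of 0.095 and 0.83. In that fit 11.5% of all tested miRNAs passed in either direction. The leukocyte median turned to -0.16 when C57BL/6 replicate 1 was left out, to -0.084 when C57BL/6 replicate 3 was, and to -0.037 when MRL/lpr replicate 3 was, and the mesenchymal median was -0.43 without C57BL/6 replicate 3. By the same test 0 members of the miR-200 family passed without C57BL/6 replicate 2, as with each other library left out.

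The 5 miRNAs whose profile over the 6 libraries was nearest to that of the summed family, by root mean square difference of log2(CPM + 1) after centring, were miR-22-3p (0.058), miR-194-5p (0.069), miR-29c-5p (0.086), miR-3068-5p (0.097) and miR-425-5p (0.11). Among these, miR-194-5p is a tubular miRNA and was at 18766, 12550 and 18124 CPM in C57BL/6 kidney and 16551, 17814 and 16778 CPM in MRL/lpr. On the same measure miR-429-3p (0.086), which dominates the sum, and miR-200a-3p (0.11) lay as near, while miR-200b-3p (0.22), miR-200c-3p (0.36) and miR-141-3p (0.45) lay farther off. The summed family (35924 CPM) and each of the 5 nearest miRNAs had their lowest value in C57BL/6 replicate 2, so a low value in that 1 library is part of the likeness. The measure describes these 6 libraries, which share their depths and scaling.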

How the data were processed

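Kidney total RNA was ligated to adapters, amplified, size-selected on gels and sequenced, per the labels' protocols. No protocol text mentions molecular identifiers, so reads may include PCR duplicates, and intervals and limits cover counting error only. The authors deposited 1 table of unnormalized whole-number counts per mature miRNA. Bowtie2, DESeq2 and GRCm38.p6 are named in the submitters' processing notes. Their roles, the miRNA annotation and the handling of strand and multiple matches were not given in the sources used here. Columns were matched to samples by strain, age and replicate in their names. Within a strain every pair of libraries differed by more than counting noise (chi-square divided by its degrees of freedom 123 to 726), so none was counted as a copy.

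Counts were filtered (edgeR 4.0.16 filterByExpr, minimum count 10, minimum total 15), scaled by TMM and tested with the robust quasi-likelihood test for group alone in R 4.3.3, with Benjamini-Hochberg adjustment over all tested miRNAs and a threshold of 0.05. Standard errors come from the coefficient and its F statistic. Arm balance was tested with limma 3.58.1 (pseudocount 1 CPM), and ratios by exact two-sided permutation. The labels do not call the libraries separate animals, so p-values reflect only sample-to-sample spread, which may be technical. Tests were tried on simulated data. Alternatives were other scalings and filters, DESeq2 1.42.0, limma-voom, edgeR without robust dispersion, a replicate block, other summaries and pseudocounts, and each library left out; 5 ratios of single members were added after seeing the data. All members, and from each list the called miRNAs, or with no call the 2 highest in level, are named; miR-205-5p was named after its values were seen. Members and lists were chosen with earlier results of these data known. Figures were drawn with matplotlib 3.10.9.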

Additional observations from a re-analysis of the deposited data

How the results depend on the processing

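None of the alternatives brought a miR-200 family member past the threshold. The number of calls over all miRNAs ranged from 5 (1.06%, without MRL/lpr replicate 3) to 64 (4.59%, no filter). It was 28 (6.21%) in the chosen fit, 51 (8.33%) with DESeq2, 21 (4.66%) with limma-voom and 19 (4.21%) without robust dispersion. Percentages are of the miRNAs tested in each fit, from 292 (filter of 10 CPM in 3 libraries, 11.6% called, the highest share) to 1395 (no filter). Signs of values near 0 turned. The log2 fold change of miR-200a-3p was 0.0072 with RLE scaling, 0.15 with library size alone, 0.027 with TMM without the 10 most abundant miRNAs, 0.041 with a filter of 10 CPM in 3 libraries and 0.0091 with DESeq2. With 1 library left out it ran from -0.12 to 0.014, that of miR-200b-5p from -0.092 to 0.29, that of miR-429-3p from -0.082 to 0.27 and that of miR-21a-5p from -0.057 to 0.92. The arm ratio difference of miR-200c was -0.0011 with a pseudocount of 5 CPM and ran from -0.14 to 0.49 with 1 library left out, and that of miR-429 from -0.34 to 0.042. The seed ratio difference was 0.27 with mean log2 values and ran from -0.14 to 0.039 with 1 library left out. The 3 lists (16, 12 and 8 tested) together held 4 calls, where 6.21% of all tested miRNAs passed. With 1 library left out they held from 1 (without MRL/lpr replicate 3, 1.06% of all passing) to 10 (without C57BL/6 replicate 2, 11.5% of all passing). The causes were not tested. With library size alone the median over all tested miRNAs shifted by 0.15. Low counts limit miR-200c-5p and miR-429-5p.

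Replicate numbers did not pair the samples: same-numbered libraries correlated at -0.37 to 0.034 in their deviations from the strain means, none of the 3 pairs exceeded 0.1, and no library correlated best with its own number. With the replicate block 0 members, 0 arm differences and 13 of all tested miRNAs (2.88%) passed. In that fit the 3 lists held 2 calls, as miR-211-5p (edgeR adjusted p = 0.0571) and miR-155-5p (0.0842) did not pass. The paired cluster and seed differences stayed 0.22 and -0.057 (exact sign-flip p = 0.75 for each, where 0.25 is the smallest possible).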
